A study of Mus musculus with 203 samples.

Results

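The genes described here are 34 glutamate receptor and auxiliary subunit genes of the mouse. They were chosen by name as a family and not by their levels, though with earlier results of these data known. All 34 were among the 24029 genes of the deposited table. They were 4 AMPA receptor subunits, 5 kainate receptor subunits, 7 NMDA receptor subunits, 1 delta receptor subunit, 7 metabotropic glutamate receptors and 10 auxiliary subunits. Their reads were counted in single neurons of the nucleus ambiguus (Amb), the brainstem nucleus that holds the parasympathetic neurons of the heart and the motor neurons of the larynx. All neurons came from wild-type C57BL/6NCrl mice (C57BL/6 in the labels) of postnatal day 2 to 4, and no group had another genotype or treatment. Each neuron had been filled with fluorescent cholera toxin B carried back from the heart or from the cricothyroid muscle of the larynx, was aspirated from a brainstem slice, and was sequenced by Smart-seq2, which amplifies full-length cDNA by PCR. The annotation of the authors assigns 98 neurons labeled from the heart to a type named ACV and 53 to a type named ACP, and the 52 neurons labeled from the larynx form the Larynx type.

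Glutamate is the main fast excitatory transmitter of the brainstem, and it drives Amb neurons through the central pathways of the baroreflex and of breathing. Ionotropic receptors are tetrameric channels: AMPA receptors carry most of the fast current, kainate receptors carry smaller and slower currents and also act presynaptically, and NMDA receptors open only when glutamate meets a depolarized membrane. Metabotropic receptors signal through G proteins, those of group I through phospholipase C and those of groups II and III by lowering cyclic AMP. Auxiliary subunits, among them the TARPs, the cornichons and the Neto proteins, set how the channels reach the surface and how fast they close.

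Neither the labels nor the annotation names the mouse of any neuron, so each type counts as 1 sample, no p-value is given, and neurons are not treated as replicate animals. According to the paper, the larynx was injected in other mice than the heart. Differences from the Larynx type therefore cannot be told apart from differences of animals and injection, while ACP and ACV neurons both came from heart-injected mice. The types ACP and ACV were also drawn by clustering these same counts, so differences between them describe the clusters. Levels are counts per 1000000 counts outside Rn45s (CPM), a ribosomal RNA transcript that took a mean of 37% of counts in ACP, 38.5% in ACV and 58.2% in Larynx neurons. Neurons had 542162 to 3292763 counts, and the median outside Rn45s was 1115375 in ACP, 1120512 in ACV and 560892 in Larynx neurons, so a single read was worth more CPM in the Larynx type. The motor neuron markers Chat and Slc18a3 had means of 175.7 to 232 CPM and 690 to 1501 CPM in the 3 types. Shares of neurons are given with exact 95% binomial intervals. These take the neurons as independent draws, leave out differences between mice, and describe the sampled neurons and not animals. PCR reads without molecular identifiers are not independent molecules, so read counts are given without intervals.

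Of the 34 genes, a neuron had reads of 21.7 ± 4.86 (SD, n = 53) in ACP, 19.5 ± 4.91 (SD, n = 98) in ACV and 21.8 ± 5.68 (SD, n = 52) in Larynx. After every neuron was thinned to 200000 counts outside Rn45s, which left out 3 shallower Larynx neurons, the means were 19.5, 17.3 and 20.7. The summed level of the family had a lowest, median and highest value of 1026, 2054 and 6060 CPM in ACP, 360.1, 1449 and 4486 CPM in ACV, and 649.8, 2575 and 6514 CPM in Larynx neurons. ACV neurons thus had the lowest summed level on average, at 1639 ± 792 CPM (SD, n = 98) against 2441 ± 1215 CPM (SD, n = 53) in ACP and 2939 ± 1463 CPM (SD, n = 52) in Larynx. The order of ACP and Larynx rested on the scaling: the summed level was 1.20-fold higher in Larynx as scaled here, and 1.23-fold higher in ACP when Rn45s was kept in the totals.

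**Figure D1:**
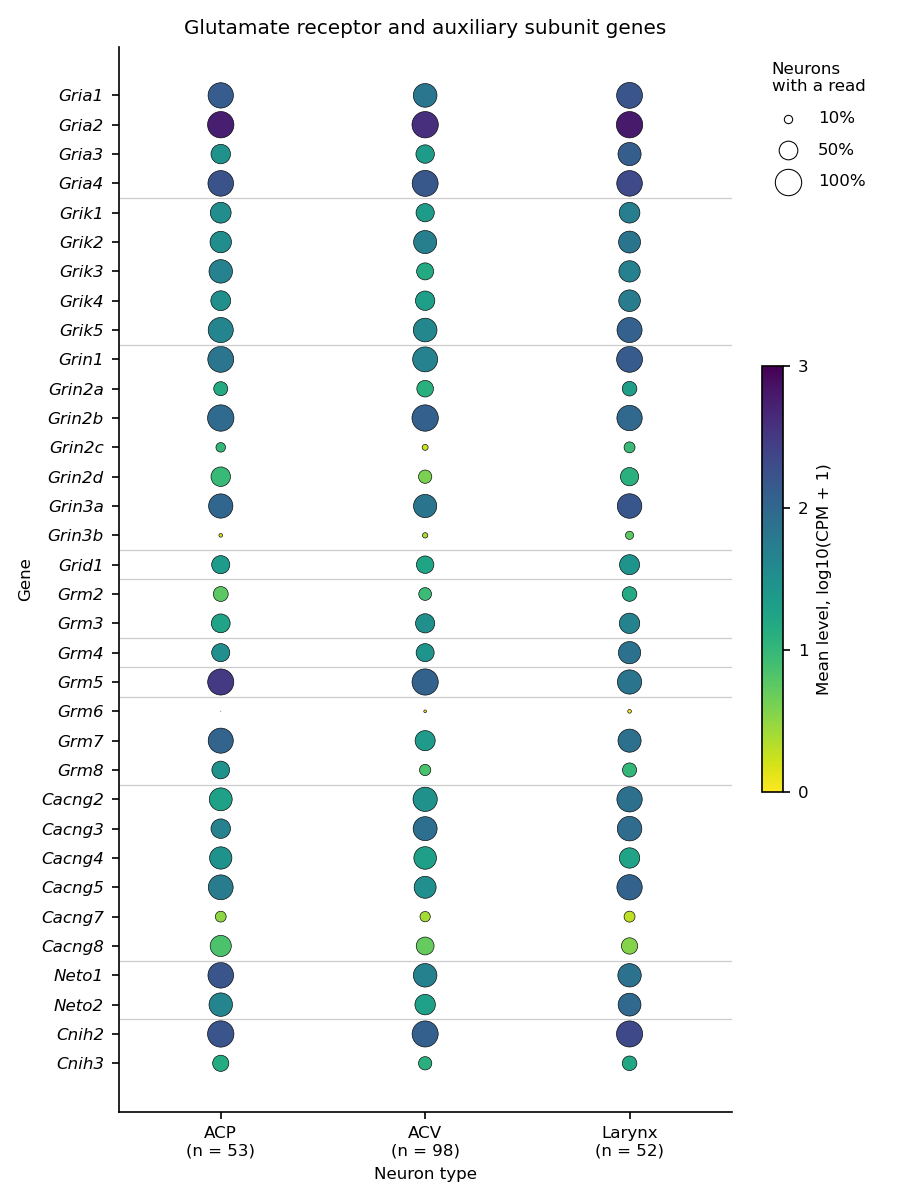
All 34 genes (rows, with grey lines between roles) in the 3 neuron types (columns). Dot area gives the share of neurons with a read and color the mean level as log10(CPM + 1). Gria2 is the darkest dot in each column with reads in 100% of neurons, while Grm6 and Grin3b are the smallest.

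A member was counted as higher in a type when its mean CPM was at least 2-fold that of the other type, among genes that at least 10% of ACP, ACV or Larynx neurons in the pair had a read of, which 32 of the 34 met in each comparison and Grin3b and Grm6 did not. Between ACP and ACV, 9 of 32 members (28.1%) were higher in ACP, where 9.87% of all 13356 genes were, and 0 were higher in ACV, where 8.63% were. Their median log2 ratio of ACP over ACV was 0.52, against 0.00 over all genes, and 26 of the 32 lay above a ratio of 1. Against Larynx neurons, 5 members (15.6%) were higher in ACP and 9 (28.1%) in Larynx, beside 10.3% and 12.5% of 13256 genes. Compared with ACV neurons, Larynx neurons had 15 members (46.9%) higher and 0 lower, beside 14% and 10.4% of 13297 genes. The median log2 ratios of the members were -0.40 for ACP over Larynx and -0.83 for ACV over Larynx, against -0.03 over all genes in both.

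The 3 comparisons share neurons and are not independent. Of the 32 members, 23 had their highest mean in Larynx, 8 in ACP and 1, Grin2b, in ACV, and 22 had their lowest mean in ACV. Over 13599 genes, 38.3% had their highest mean in Larynx and 33.5% their lowest in ACV. A stricter count that also asked for a share of neurons with a read at least 20 percentage points higher held 4 members higher in ACP than ACV (2.14% of all genes) and 0 the other way (0.898%), 1 higher in ACP than Larynx (2.76%), 2 higher in Larynx than ACP (1.42%) and 5 higher in Larynx than ACV (2.78%) against 0 the other way (2.35%). Single neurons of a type varied widely. The ranges of the types overlapped for all 34 members in all 3 comparisons, and no pair of type means differed by more than the larger SD over neurons. Most members had neurons at 0 CPM in each type, so overlapping ranges were nearly given in advance. No value over all genes stands beside these statements, which describe the spread of single neurons and nothing particular to the family.

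Keeping Rn45s in the totals moved the median log2 ratio of all genes to 0.58 for ACP over Larynx and 0.52 for ACV over Larynx. The members then split as 7 higher in ACP and 3 in Larynx, and as 3 higher in ACV and 10 in Larynx, while the count of ACP over ACV stayed at 9 and 0. Over all genes the shares higher in ACP and Larynx then became 25.6% and 5.24%, and those higher in ACV and Larynx 24.7% and 7.18%. For ACP over Larynx, 10 members within the 2-fold limit then turned from below to above a ratio of 1, namely Gria1, Gria2, Gria4, Grik3, Grin2b, Grin2d, Grin3a, Grid1, Cnih2 and Cnih3, at log2 ratios of 0.03 to 0.55. Grm3 and Cacng3 did so for ACV over Larynx, at 0.34 and 0.38. Of the members called higher in Larynx, 6 fell short of 2-fold against ACP and 5 against ACV, and 0 turned. Directions against the Larynx type are therefore given below relative to counts outside Rn45s.

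**Figure D2:**
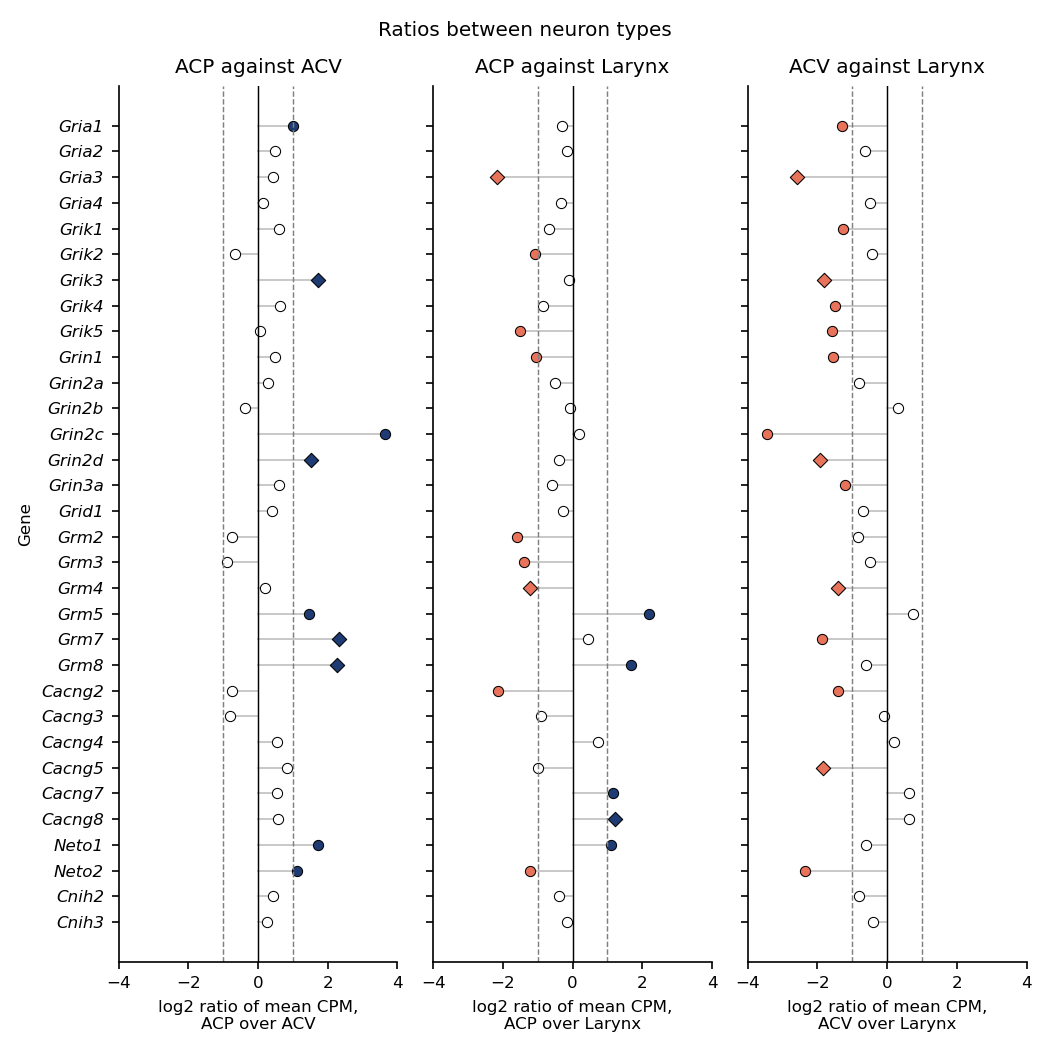
The log2 ratio of mean CPM for 32 members in the 3 comparisons. Filled symbols pass the 2-fold limit (dashed lines at 1 and -1) and take the color of the higher type, diamonds also pass the share limit of 20 percentage points, and open circles pass neither. In the panel of ACV against Larynx all 15 filled symbols lie left of 0.

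AMPA receptors. Gria1 to Gria4 encode GluA1 to GluA4, and whether a channel holds GluA2 decides its calcium permeability, because the Gria2 transcript is edited at the glutamine codon of the pore loop by Adarb1. The coding stretch around that codon is shown for the 4 AMPA subunits, and for Grik1 and Grik2, whose transcripts are edited at the same place, with the codon in capitals and 30 bases on each side, read 5′ to 3′ from the GENCODE vM21 transcripts on GRCm38 (mm10).
Gria1: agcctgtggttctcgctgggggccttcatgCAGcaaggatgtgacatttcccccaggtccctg
Gria2: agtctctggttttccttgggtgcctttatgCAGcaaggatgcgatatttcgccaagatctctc
Gria3: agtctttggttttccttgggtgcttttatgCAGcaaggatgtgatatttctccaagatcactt
Gria4: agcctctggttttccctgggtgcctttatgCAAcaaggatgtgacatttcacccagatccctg
Grik1: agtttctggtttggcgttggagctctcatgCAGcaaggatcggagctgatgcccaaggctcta
Grik2: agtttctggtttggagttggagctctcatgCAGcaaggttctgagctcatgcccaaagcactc
The codon lies in coding exon sequence at chr11:57243094-57243096 (plus strand) in Gria1, chr3:80706911-80706913 (minus strand) in Gria2, chrX:41610265-41610267 (plus strand) in Gria3, chr9:4464137-4464139 (minus strand) in Gria4, chr16:87940542-87940544 (minus strand) in Grik1 and chr10:49244329-49244331 (minus strand) in Grik2. Of the 63 bases shown, 57 were identical between Gria2 and Gria3, 55 between Gria1 and Gria4, 56 between Grik1 and Grik2, and 38 to 42 between an AMPA and a kainate subunit. Counts hold no base calls, so editing at this codon was not measured. Reads of both Gria2 and Adarb1, the editing enzyme, were found in 33 of 53 ACP neurons (62.3%, 47.9 to 75.2), 57 of 98 ACV neurons (58.2%, 47.8 to 68.1) and 34 of 52 Larynx neurons (65.4%, 50.9 to 78).

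Gria2 had reads in all neurons of the 3 types. Its lowest, median and highest levels were 14.1, 469 and 1588 CPM in ACP, 0.660, 309 and 1857 CPM in ACV, and 26.3, 368 and 2882 CPM in Larynx neurons. The means were 559 ± 375 (SD, n = 53), 397 ± 310 (SD, n = 98) and 622 ± 613 CPM (SD, n = 52), so no ratio between types reached 2. Gria4, on chr9:4417896-4796234, was also close in the 3 types, with means of 167.6 ± 169.4, 151.7 ± 140.97 and 213 ± 225 CPM and medians of 110, 114.6 and 127.9 CPM, and reads in 94.3%, 96.9% and 94.2% of neurons. Per kilobase of merged exons, Gria2 had the highest mean level of the 4 subunits in each type (35.9, 25.5 and 40 CPM per kb in ACP, ACV and Larynx), followed by Gria4 (26.6, 24.1 and 33.7) and Gria1 (21.8, 10.9 and 26.8).

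Gria1 ran from 0 to 663 CPM in ACP with a median of 118.9 CPM, from 0 to 538 CPM in ACV with a median of 28.1 CPM, and from 0 to 707 CPM in Larynx with a median of 110 CPM. The ACV type was low, with a mean of 65.9 ± 104.3 CPM (SD, n = 98) against 131.9 ± 129.02 (SD, n = 53) in ACP and 161.995 ± 170.5 (SD, n = 52) in Larynx. The ratio of ACP over ACV was 2.00, right at the limit, and that of Larynx over ACV was 2.46. Among neurons with at most 1800 counts of Apoe, an astrocyte transcript, the log2 ratio of ACP over ACV for Gria1 was 1.54 in place of 1.0, and without the highest neuron of each type the ratio was 1.99. With Rn45s in the totals the log2 ratio of ACV over Larynx was -0.82, short of 2-fold.

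Gria3, on chrX:41400854-41678601, was the AMPA subunit that differed most between targets. Its lowest, median and highest levels were 0, 1.19 and 446 CPM in ACP, 0, 0 and 260 CPM in ACV, and 0, 75.5 and 568 CPM in Larynx neurons. The Larynx mean of 128.5 ± 152.3 CPM (SD, n = 52) was 4.46-fold that of ACP, 28.8 ± 69.3 CPM (SD, n = 53), and 6.02-fold that of ACV, 21.3 ± 47.2 CPM (SD, n = 98). Reads of Gria3 were found in 40 of 52 Larynx neurons (76.9%, 63.2 to 87.5), 29 of 53 ACP neurons (54.7%, 40.4 to 68.4) and 48 of 98 ACV neurons (49%, 38.7 to 59.3). Larynx stayed at least 2-fold higher than either cardiac type under each of 9 other scalings, summaries or selections of neurons. Most Larynx neurons held all 4 subunits, with reads of each in 39 of 52 (75%, 61.1 to 86), against 26 of 53 ACP (49.1%, 35.1 to 63.2) and 45 of 98 ACV neurons (45.9%, 35.8 to 56.3).

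The makeup of the AMPA family was computed neuron by neuron as the share of each subunit in the summed counts per kilobase, over neurons with at least 20 counts of the family. Gria2 made up 45.8% ± 19 (SD, n = 53) in ACP, 45.3% ± 22.8 (SD, n = 97) in ACV and 35.6% ± 17.5 (SD, n = 51) in Larynx neurons. Gria4 made up 27.4%, 37.6% and 27.5%, Gria1 23.1%, 14.1% and 24%, and Gria3 3.75%, 3.03% and 12.9%. Gria2 was the subunit with the highest level per kilobase in 35 of 53 ACP neurons, while in ACV neurons it led in 45 of 97 and Gria4 in 44 of 97. These counts rest on merged exons, of 15548 bases for Gria2 and 6305 for Gria4. The longest transcripts measure 10371 and 5441 bases, which would raise Gria2 more than Gria4. Without the correction for exon length the share of Gria2 was 64.3%, 62.7% and 53%, with the Larynx type lowest in both forms.

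**Figure D3:**
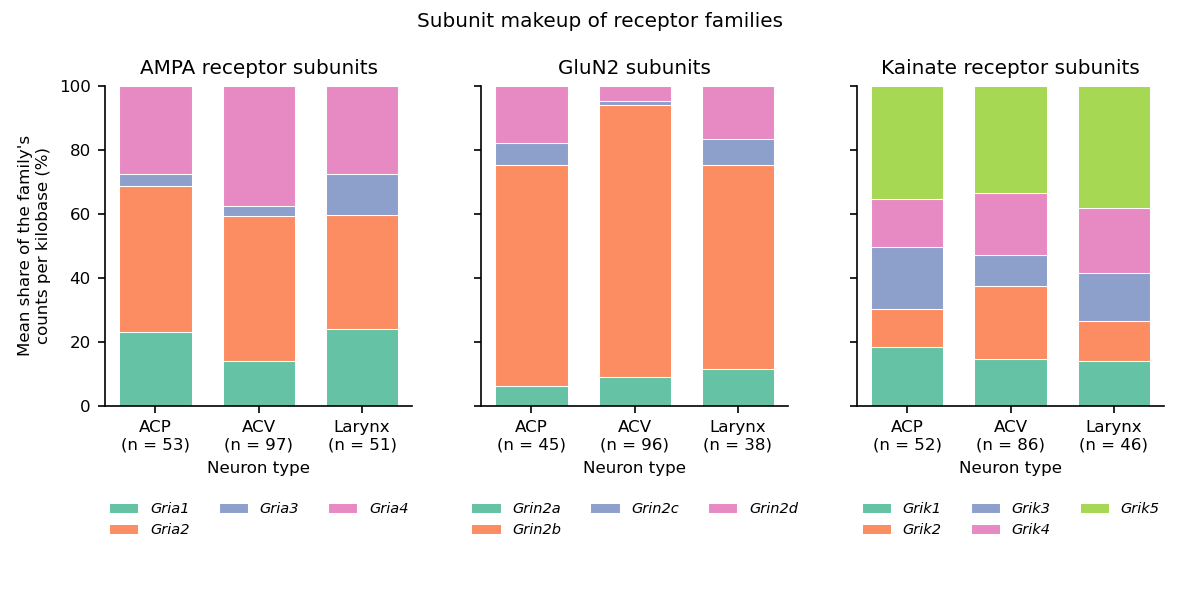
Mean share of each subunit in its family's counts per kilobase, in percent, for AMPA, GluN2 and kainate subunits in the 3 neuron types. Bars are means over n neurons with at least 20 counts of the family and carry no error bars. The Gria3 segment is 12.9% in Larynx against 3.75% and 3.03% in the cardiac types, and Grin2b fills 85% of the ACV bar.

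Kainate receptors. Grik1 to Grik3 encode the low-affinity subunits that can form channels alone, and Grik4 and Grik5 the high-affinity subunits that need a low-affinity partner. The summed level of the 5 genes was 184.8 ± 140.03 CPM (SD, n = 53) in ACP, 147.3 ± 147.5 CPM (SD, n = 98) in ACV and 347 ± 295 CPM (SD, n = 52) in Larynx neurons. Grik5 had the highest level per kilobase of the 5 in each type, at 8.17, 7.80 and 23.3 CPM per kb in ACP, ACV and Larynx.

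Grik3, on chr4:125490700-125714173, was low in ACV neurons. Its lowest, median and highest levels were 0, 18.8 and 196.4 CPM in ACP, 0, 0 and 137.8 CPM in ACV, and 0, 22.3 and 430 CPM in Larynx. The mean of 45.9 ± 58.6 CPM (SD, n = 53) in ACP was 3.29-fold that of ACV, 14 ± 26.8 CPM (SD, n = 98), and Larynx, at 48.8 ± 79.7 CPM (SD, n = 52), was 3.49-fold above ACV. Reads of Grik3 were found in 42 of 53 ACP neurons (79.2%, 65.9 to 89.2), 41 of 98 ACV neurons (41.8%, 31.9 to 52.2) and 34 of 52 Larynx neurons (65.4%, 50.9 to 78). After thinning to equal depth the shares were 64.2%, 34.7% and 61.2%. ACP and Larynx neurons were close in this gene, with a ratio of 0.940.

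Grik5 showed the opposite grouping, with the cardiac types close to each other. Its medians were 31.7 CPM in ACP, 20.4 CPM in ACV and 74.5 CPM in Larynx, and the highest neurons had 230, 543 and 903 CPM. The Larynx mean of 120 ± 165.7 CPM (SD, n = 52) was 2.85-fold that of ACP, 42.2 ± 47.1 CPM (SD, n = 53), and 2.98-fold that of ACV, 40.3 ± 76.7 CPM (SD, n = 98). With Rn45s in the totals both log2 ratios stayed in this direction but fell short of 2-fold, at -0.74 and -0.90.

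Grik1 and Grik4 were each lowest in ACV. Grik1 ran from 0 to 275, 221 and 615 CPM in ACP, ACV and Larynx, with medians of 6.36, 0 and 10.5 CPM and means of 32.8 ± 55.9, 21.6 ± 46 and 52 ± 103.3 CPM, and Larynx was 2.41-fold above ACV. For Grik4 the highest neurons had 348, 199.6 and 358 CPM, the medians were 3.32, 1.48 and 30 CPM, the means were 30.9 ± 59.7, 19.8 ± 34.9 and 55.9 ± 71.5 CPM, and Larynx was 2.82-fold above ACV. Grik2 was instead lowest in ACP, where it ran from 0 to 288 CPM with a median of 9.27 CPM, against 0 to 442 CPM and 18.7 CPM in ACV and 0 to 397 CPM and 22.6 CPM in Larynx. Its means were 32.9 ± 56.3, 51.7 ± 82.3 and 69.9 ± 99.4 CPM, and the 2.12-fold higher mean in Larynx than ACP fell below 2-fold in 4 of 9 alternatives. All 5 kainate subunits were found together in 14 of 53 ACP neurons (26.4%, 15.3 to 40.3), 12 of 98 ACV neurons (12.2%, 6.49 to 20.4) and 17 of 52 Larynx neurons (32.7%, 20.3 to 47.1).

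By share of the family per kilobase, Grik5 led in each type, with 35.3% ± 29.8 (SD, n = 52) in ACP, 33.6% ± 27.1 (SD, n = 86) in ACV and 38.3% ± 27.5 (SD, n = 46) in Larynx. Grik2 followed in ACV with 22.8%, against 11.8% in ACP and 12.5% in Larynx, while Grik3 followed in ACP with 19.4%, against 9.52% in ACV and 15% in Larynx. Grik1 made up 18.3%, 14.7% and 14% in ACP, ACV and Larynx. The second place of Grik3 in ACP was narrow. Merged exons measure 6721 bases for Grik1 and 8973 for Grik3, and the longest transcripts 3655 and 8973, which would raise Grik1 only. By mean level per kilobase, Grik4 stood second in ACP, at 5.19 against 5.11 CPM per kb for Grik3. Every kainate subunit was the leading subunit of some neurons in each type, so the family was mixed from neuron to neuron.

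NMDA receptors. These channels join the obligatory subunit GluN1 of Grin1 with GluN2 subunits, of which GluN2B is the one typical of the newborn brain, and sometimes with GluN3 subunits, which lower calcium entry. Reads of Grin1 and Grin2b together were found in 51 of 53 ACP neurons (96.2%, 87 to 99.5), 88 of 98 ACV neurons (89.8%, 82 to 95) and 47 of 52 Larynx neurons (90.4%, 79 to 96.8). Grin2b was nearly level, running from 6.46 to 376 CPM in ACP with a median of 71 CPM, from 0.613 to 363 CPM in ACV with a median of 106.2 CPM, and from 0 to 337 CPM in Larynx with a median of 76.5 CPM. Its means were 93.1 ± 79.8 (SD, n = 53), 121.5 ± 79 (SD, n = 98) and 98.5 ± 82.3 CPM (SD, n = 52), and it was the single member with its highest mean in ACV. Exons of Grin2b overlap antisense genes, as do those of Grin1, Grin2d, Grm2, Grm6, Grm7, Cacng2 and Neto1, and Nextera XT libraries carry no strand, so reads of the overlapping parts cannot be told apart.

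Grin1 was high in Larynx neurons. The lowest, median and highest levels were 0, 43.1 and 246 CPM in ACP, 0, 29.2 and 417 CPM in ACV, and 0, 127.4 and 464 CPM in Larynx. In Larynx the mean of 139.06 ± 115.1 CPM (SD, n = 52) was 2.08-fold that of ACP, 66.9 ± 61.7 CPM (SD, n = 53), and 2.94-fold that of ACV, 47.4 ± 64.3 CPM (SD, n = 98). The first of these ratios fell below 2-fold in 5 of 9 alternatives and the second in 0 of 9. Shares of neurons with a read were 96.2%, 89.8% and 96.2%, so the types differed in level more than in detection.

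Grin3a, which encodes GluN3A, had the highest level per kilobase of merged exons of the 7 NMDA genes in ACP (8.45 CPM per kb) and ACV (5.58). It stood at 12.8 beside 14.3 for Grin1 in Larynx neurons. This order depends on the length used. Merged exons measure 12275 bases for Grin3a and 9700 for Grin1, and their longest transcripts 7491 and 4276. Per kilobase of the longest transcript, Grin1 stands above Grin3a in ACP and ACV too. Grin3a ran from 0 to 828 CPM in ACP, 0 to 1036 CPM in ACV and 0 to 965 CPM in Larynx, with medians of 42, 28.6 and 113.02 CPM. Larynx neurons, with a mean of 157.6 ± 170.6 CPM (SD, n = 52) were 2.30-fold above ACV, 68.5 ± 131.7 CPM (SD, n = 98), and ACP lay between at 103.7 ± 154.7 CPM (SD, n = 53). The log2 ratio of ACV over Larynx for Grin3a was -0.72 with Rn45s in the totals, short of 2-fold.

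The remaining GluN2 subunits were sparse. Grin2d, on chr7:45831883-45878378, had reads in 29 of 53 ACP neurons (54.7%, 40.4 to 68.4), 25 of 98 ACV neurons (25.5%, 17.2 to 35.3) and 25 of 52 Larynx neurons (48.1%, 34 to 62.4). Its lowest, median and highest levels were 0, 1.08 and 83.7 CPM in ACP, 0, 0 and 48.9 CPM in ACV, and 0, 0 and 121.6 CPM in Larynx. The means of 8.59 ± 16.8 (SD, n = 53), 2.98 ± 8.84 (SD, n = 98) and 11.3 ± 22.4 CPM (SD, n = 52) put ACP 2.88-fold and Larynx 3.80-fold above ACV.

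Grin2a had means of 14.2, 11.5 and 20.3 CPM and reads in 28.3%, 39.8% and 30.8% of ACP, ACV and Larynx neurons, with a median of 0 in each. In ACP 62.1% of its summed CPM lay in 1 neuron, and without the highest neuron of each type the ratio of ACP over ACV went from 1.23 to 0.523. Grin2c had reads in 7 of 53, 5 of 98 and 9 of 52 neurons, and 75.8% of its summed CPM in ACP lay in 1 neuron. Its ratio of ACP over ACV was 12.5, 4.94 without the highest neuron of each type, and below 2-fold by the mean of log values, at a log2 ratio of 0.45. Grin3b had reads in 1 of 53, 4 of 98 and 5 of 52 neurons, with exons that overlap Tmem259 on the other strand.

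Within the GluN2 subunits, Grin2b made up 69.3% ± 29.8 (SD, n = 45) per kilobase in ACP, 85% ± 20 (SD, n = 96) in ACV and 63.9% ± 31 (SD, n = 38) in Larynx neurons. It was the leading GluN2 subunit in 90 of 96 ACV neurons (93.8%), 32 of 45 ACP neurons (71.1%) and 27 of 38 Larynx neurons (71.1%). Grin2d made up 17.9% in ACP, 4.74% in ACV and 16.6% in Larynx. When counts per kilobase were summed over the neurons of a type, Grin2b made up 48.4%, 79.8% and 46.9%, with ACV again the highest.

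Grid1, a delta receptor subunit that binds cerebellins and opens little if at all with glutamate, ran from 0 to 265 CPM in ACP, 0 to 241 CPM in ACV and 0 to 186.04 CPM in Larynx, with medians of 0, 0 and 2.95 CPM. Its means of 22.2 ± 46.5, 16.6 ± 39.4 and 27 ± 46.4 CPM differed by less than 2-fold in each comparison.

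Metabotropic receptors. Grm5, on chr7:87584168-88134907, encodes mGluR5, a group I receptor coupled to phospholipase C, and it was the member whose mean CPM in ACP exceeded those of the other types by the most. Its lowest, median and highest levels were 0, 253 and 1418 CPM in ACP, 0, 82.4 and 817 CPM in ACV, and 0, 43.5 and 297 CPM in Larynx neurons. ACP neurons were high as a group, although nearly all ACV neurons also had reads: 26 of 53 ACP neurons lay above the ACP median, against 11 of 98 ACV neurons and 2 of 52 Larynx neurons. The ACP mean of 317 ± 281 CPM (SD, n = 53) was 2.73-fold that of ACV, 116.1 ± 135.5 CPM (SD, n = 98), and 4.56-fold that of Larynx, 69.5 ± 81.1 CPM (SD, n = 52). Both ratios stayed at or above 2-fold in 9 of 9 alternatives, from 1.41 to 1.68 on the log2 scale against ACV and from 2.19 to 3.03 against Larynx. Reads of Grm5 were found in 52 of 53 ACP, 97 of 98 ACV and 44 of 52 Larynx neurons, so it is a difference of level and not of presence between the cardiac types.

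The group III receptor Grm7, on chr6:110645581-111567230, encodes mGluR7, a low-affinity receptor of active zones. Its lowest, median and highest levels were 0, 67.5 and 688 CPM in ACP, 0, 2.37 and 210 CPM in ACV, and 0, 56.5 and 268 CPM in Larynx neurons. ACV neurons stood out as low, with reads in 57 of 98 (58.2%, 47.8 to 68.1) against 48 of 53 ACP (90.6%, 79.3 to 96.9) and 40 of 52 Larynx neurons (76.9%, 63.2 to 87.5). The mean of 108.8 ± 132.97 CPM (SD, n = 53) in ACP was 4.97-fold that of ACV, 21.9 ± 40.3 CPM (SD, n = 98), and that of Larynx, 79.4 ± 78.3 CPM (SD, n = 52), was 3.63-fold that of ACV. After thinning, 84.9%, 48% and 77.6% of ACP, ACV and Larynx neurons had a read. Grm5 and Grm7 were found together in 48 of 53 ACP neurons (90.6%, 79.3 to 96.9), 57 of 98 ACV neurons (58.2%, 47.8 to 68.1) and 35 of 52 Larynx neurons (67.3%, 52.9 to 79.7).

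Grm8, a group III receptor on chr6:27275119-28135178, was the sparser of the receptors high in ACP. Reads were found in 24 of 53 ACP neurons (45.3%, 31.6 to 59.6), 18 of 98 ACV neurons (18.4%, 11.3 to 27.5) and 15 of 52 Larynx neurons (28.8%, 17.1 to 43.1). The median was 0 CPM in each type and the highest neurons had 187.6, 170.3 and 184.4 CPM in ACP, ACV and Larynx. The ACP mean of 29.8 ± 48.6 CPM (SD, n = 53) was 4.82-fold that of ACV, 6.19 ± 24.4 CPM (SD, n = 98), and 3.19-fold that of Larynx, 9.34 ± 28.9 CPM (SD, n = 52). Both ratios were at or above 2-fold in 9 of 9 alternatives.

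Grm4, on chr17:27422387-27521403, is a further presynaptic group III receptor, and it went with the laryngeal target. The lowest, median and highest levels were 0, 0 and 678 CPM in ACP, 0, 0 and 280 CPM in ACV, and 0, 18.2 and 487 CPM in Larynx. Reads were found in 37 of 52 Larynx neurons (71.2%, 56.9 to 82.9), against 25 of 53 ACP (47.2%, 33.3 to 61.4) and 46 of 98 ACV neurons (46.9%, 36.8 to 57.3). The Larynx mean of 73.3 ± 115.9 CPM (SD, n = 52) was 2.32-fold that of ACP, 31.6 ± 100.995 CPM (SD, n = 53), and 2.68-fold that of ACV, 27.3 ± 50 CPM (SD, n = 98). In ACP 40.5% of the summed CPM lay in 1 neuron. With Rn45s in the totals the log2 ratios were -0.57 and -0.87, short of 2-fold.

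Grm6, the receptor of retinal ON bipolar cells, was at the floor, with reads in 0 of 53 ACP neurons, for which a floor of 3 counts allows a share of up to 5.66%, and with 1 read in 1 of 98 ACV neurons and 1 read in 1 of 52 Larynx neurons. The group II receptors Grm2 and Grm3 had their lowest means in ACP. Grm3 had means of 17 ± 29.8, 31.2 ± 66.5 and 44.2 ± 76.7 CPM in ACP, ACV and Larynx, medians of 0.563, 0.932 and 9.88 CPM, and highest neurons of 100, 424 and 306 CPM. Grm2 had means of 4.78 ± 12.4, 8.05 ± 31.1 and 14.4 ± 38.6 CPM with a median of 0 CPM in each type, highest neurons of 68.8, 207 and 191.9 CPM, and reads in 32.1%, 23.5% and 30.8% of neurons. Larynx was 2.6-fold above ACP for Grm3 and 3.02-fold for Grm2, of which the first fell short of 2-fold with Rn45s in the totals, at a log2 ratio of -0.39, and the second by the mean of log values, at -0.36.

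**Figure D4:**
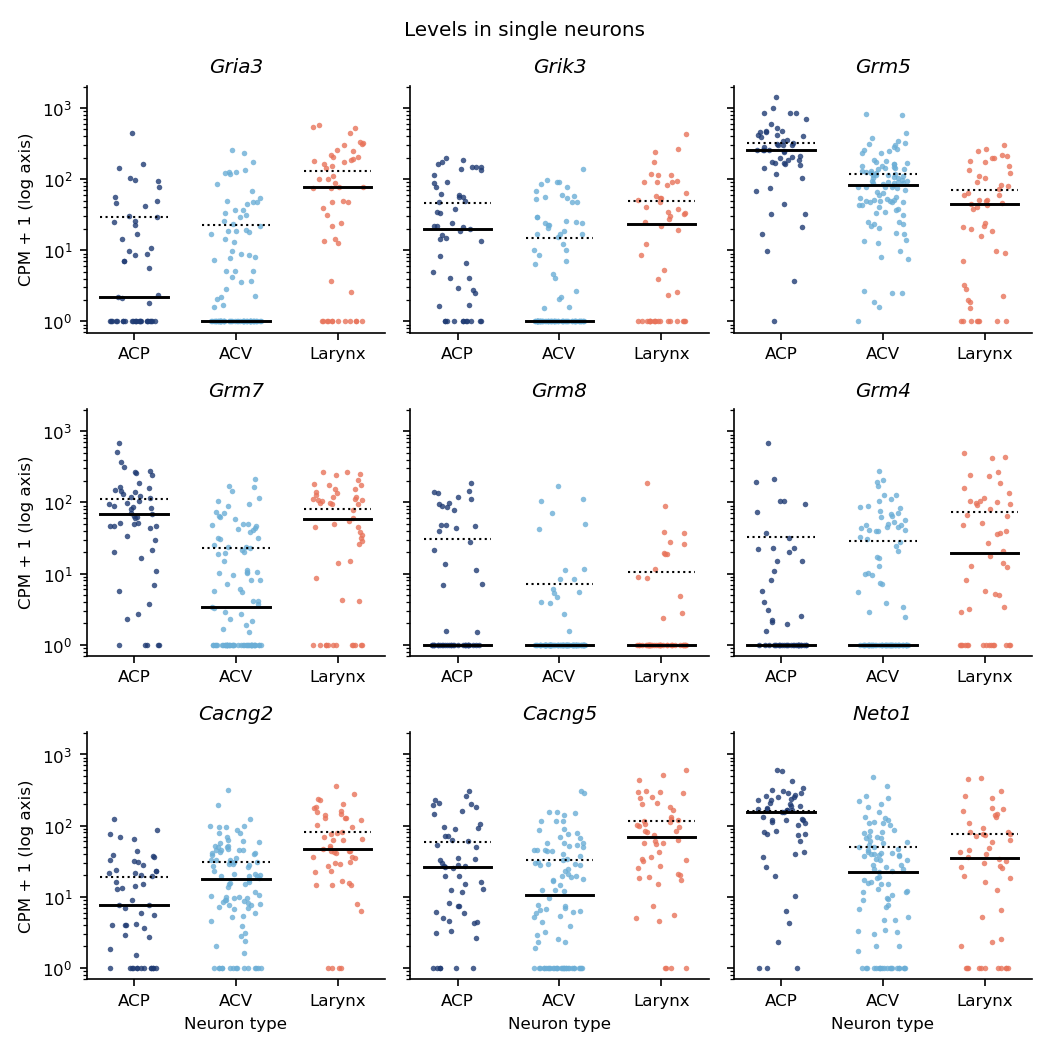
Levels of 9 members in each neuron, as CPM + 1 on a log axis, for 53 ACP, 98 ACV and 52 Larynx neurons. Points are neurons, solid lines medians and dotted lines means. ACP neurons are higher in Grm5 (median 253 CPM), ACV neurons are low in Grm7 (median 2.37 CPM), and Larynx neurons are higher in Gria3 (median 75.5 CPM), with overlapping ranges throughout.

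TARP auxiliary subunits. TARPs bind AMPA receptors and alter how fast they close, and Cacng2 encodes the founding member, stargazin. Their summed level was 160.1 ± 120.1 CPM (SD, n = 53) in ACP, 171.4 ± 108.7 CPM (SD, n = 98) in ACV and 304 ± 208 CPM (SD, n = 52) in Larynx neurons. Cacng2 ran from 0 to 122.4 CPM in ACP with a median of 6.74 CPM, 0 to 316 CPM in ACV with a median of 16.8 CPM, and 0 to 362 CPM in Larynx with a median of 46.6 CPM. The Larynx mean of 79.7 ± 79.3 CPM (SD, n = 52) was 4.41-fold that of ACP, 18.1 ± 25.3 CPM (SD, n = 53), and 2.65-fold that of ACV, 30 ± 43.4 CPM (SD, n = 98), the latter short of 2-fold with Rn45s in the totals at a log2 ratio of -0.95.

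Cacng5, on chr11:107874605-107915055, had its lowest level in ACV neurons. The lowest, median and highest values were 0, 25.4 and 309 CPM in ACP, 0, 9.71 and 306 CPM in ACV, and 0, 68.3 and 599 CPM in Larynx. In Larynx neurons the mean of 113.9 ± 133.4 CPM (SD, n = 52) was 3.55-fold that of ACV, 32.1 ± 54 CPM (SD, n = 98), and ACP, at 57.2 ± 77 CPM (SD, n = 53), lay between, with Larynx 1.99-fold above it. Reads of Cacng5 were found in 88.7% of ACP, 69.4% of ACV and 92.3% of Larynx neurons.

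Cacng3 had the highest level per kilobase of the TARPs in each type, at 17.1, 30.1 and 32.2 CPM per kb in ACP, ACV and Larynx. It was found in fewer ACP neurons, 29 of 53 (54.7%, 40.4 to 68.4), than ACV neurons, 81 of 98 (82.7%, 73.7 to 89.6), or Larynx neurons, 45 of 52 (86.5%, 74.2 to 94.4). Its medians of 3.05, 69.4 and 86.5 CPM were further apart than its means of 47.6 ± 85, 83.6 ± 83.9 and 89.4 ± 76.4 CPM, with highest neurons of 387, 384 and 262 CPM, so some ACP neurons were as high as any while many had no read. By the mean of log values, the log2 ratio of ACP over ACV was -2.00 in place of -0.81.

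The other 3 TARPs had their highest mean in ACP. Cacng8, on chr7:3390683-3415648, had medians of 2.61, 0 and 0 CPM, highest neurons of 30.7, 51.5 and 17.6 CPM, and means of 6.11 ± 8.12, 4.11 ± 8.43 and 2.65 ± 4.69 CPM in ACP, ACV and Larynx. Reads were found in 34 of 53 ACP (64.2%, 49.8 to 76.9), 45 of 98 ACV (45.9%, 35.8 to 56.3) and 20 of 52 Larynx neurons (38.5%, 25.3 to 53), and ACP was 2.31-fold above Larynx, a ratio below 2-fold in 2 of 9 alternatives. After thinning to equal depth these shares were 47.2%, 36.7% and 24.5%. Cacng4 had means of 28.9 ± 50, 20 ± 26.8 and 17.3 ± 28.3 CPM and medians of 15.3, 12.6 and 3.19 CPM, up to 305, 177.6 and 113.6 CPM. Cacng7 stayed at means of 2.25, 1.55 and 1.01 CPM, with 35 reads in all Larynx neurons together, and its 2.23-fold higher mean in ACP than Larynx was below 2-fold in 3 of 9 alternatives and turned around among neurons with at most 900 counts of Apoe.

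Neto and cornichon proteins. Neto1 and Neto2 are auxiliary subunits of kainate receptors, and Neto1 also binds NMDA receptors. The lowest, median and highest levels of Neto1 were 0, 155.4 and 605 CPM in ACP, 0, 21.5 and 484 CPM in ACV, and 0, 33.9 and 467 CPM in Larynx. ACP neurons were high, and 7 of 98 ACV and 8 of 52 Larynx neurons lay above the ACP median. The ACP mean of 160.8 ± 133.6 CPM (SD, n = 53) was 3.30-fold that of ACV, 48.7 ± 78 CPM (SD, n = 98), and 2.15-fold that of Larynx, 74.7 ± 106.5 CPM (SD, n = 52), the latter below 2-fold in 2 of 9 alternatives.

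Neto2 was highest in Larynx neurons. It ran from 0 to 351, 238 and 450 CPM in ACP, ACV and Larynx, with medians of 13.4, 3.19 and 50.5 CPM. The Larynx mean of 98.5 ± 126.2 CPM (SD, n = 52) was 2.34-fold that of ACP, 42.2 ± 65.6 CPM (SD, n = 53), and 5.07-fold that of ACV, 19.4 ± 37.8 CPM (SD, n = 98), and ACP was 2.17-fold above ACV. Larynx over ACP fell below 2-fold in 3 of 9 alternatives, to 1.41-fold with Rn45s in the totals. Per kilobase, Neto1 stood above Neto2 in ACP (19.3 against 6.88 CPM per kb) and ACV (5.83 against 3.17), and below it in Larynx (8.94 against 16.1).

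Cornichons export AMPA receptors from the endoplasmic reticulum and stay with them at the surface. Cnih2, on chr19:5092868-5098521, had reads in 53 of 53 ACP, 96 of 98 ACV and 51 of 52 Larynx neurons, and it shares exon sequence with Yif1a on the other strand. It ran from 8.86 to 590 CPM in ACP with a median of 130.9 CPM, 0 to 317 CPM in ACV with a median of 118.6 CPM, and 0 to 745 CPM in Larynx with a median of 175.9 CPM. Its means of 165.1 ± 113.7, 123.2 ± 66.2 and 218 ± 173.1 CPM were within 2-fold of each other, and per kilobase (120.6, 90 and 158.9 CPM per kb) it was the most abundant of the 34 members in each type. Cnih3 was sparse, with means of 13.8 ± 27.2, 11.5 ± 49.1 and 15.4 ± 36.1 CPM, a median of 0 CPM in each type, highest neurons of 99.7, 388 and 189.2 CPM, and reads in 37.7%, 25.5% and 30.8% of ACP, ACV and Larynx neurons.

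Summed by role, the group I receptor (2.73-fold), the group III receptors (3.07-fold) and the Neto proteins (2.98-fold) were at least 2-fold higher in ACP than in ACV. The AMPA (1.39-fold), kainate (1.25-fold), NMDA (1.17-fold) and cornichon (1.33-fold) sums and Grid1 (1.33-fold) were nearer to level, and the TARPs (0.934) and group II receptors (0.555) lay below 1. Of these directions, that of the TARPs turned with DESeq2 size factors, to 1.05. In Larynx neurons the kainate sum was 2.35-fold, the AMPA sum 1.77-fold, the NMDA sum 1.73-fold and the TARP sum 1.77-fold that of ACV neurons, and these were above 1 under all 6 other scalings and selections tried. Between ACP and Larynx, the AMPA, NMDA and cornichon sums and Grid1 were higher in Larynx as scaled here (1.27-fold, 1.48-fold, 1.30-fold and 1.22-fold) and higher in ACP with Rn45s in the totals (1.15-fold, 1.02-fold, 1.26-fold and 1.23-fold).

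Another 60 genes of glutamate synapses were scaffolds, trafficking proteins, extracellular organizers, and enzymes and transporters of glutamate. Their list was chosen with earlier results of these data known and read in the same neurons, so it is not independent of the members. Between ACP and ACV, 11 of the 57 that passed the filter were at least 2-fold higher in ACP (19.3%, beside 9.87% of all genes) and 4 in ACV (7.02%, beside 8.63%). Against Larynx, 3 of 58 were higher in ACP (5.17%, beside 10.3%) and 14 in Larynx (24.1%, beside 12.5%). Of the same 58, 1 was higher in ACV than Larynx (1.72%, beside 10.4%) and 19 the other way (32.8%, beside 14%). The medians of their log2 ratios were 0.32, -0.34 and -0.62, on the same side as those of the receptors in each comparison.

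Among the AMPA receptor partners, Olfm3 had means of 15.2 ± 24.6, 5.56 ± 19.6 and 38.5 ± 68 CPM in ACP, ACV and Larynx, 2.73-fold higher in ACP and 6.92-fold higher in Larynx than in ACV. Shisa7 had 35.6 ± 53.7, 12.9 ± 24.4 and 62.3 ± 79.2 CPM and was 4.84-fold higher in Larynx than ACV. Gsg1l had 67.1 ± 142.4, 21.6 ± 64.8 and 92.6 ± 113.4 CPM, 3.10-fold higher in ACP and 4.28-fold higher in Larynx than in ACV. These 3 were named because they passed the limits, and other genes of the same role had another order, such as Grip1, lowest in ACP at 22.6 against 49.7 and 47.4 CPM, and Pick1, lowest in Larynx at 76.6 against 91.7 and 92.9 CPM, both named after their values were seen.

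Cerebellins are secreted organizers that bridge presynaptic neurexins and delta receptors, and they split by type. Cbln2 had means of 114.7 ± 169.9, 26.9 ± 58.7 and 62.3 ± 83.4 CPM in ACP, ACV and Larynx and was 4.26-fold higher in ACP than ACV. Cbln4 had 102.1 ± 117.98, 108.5 ± 183.9 and 31.5 ± 60.2 CPM, 3.24-fold higher in ACP and 3.44-fold higher in ACV than in Larynx. Cbln1 had 13.6 ± 40.9, 17.2 ± 47.2 and 38.4 ± 48 CPM and was 2.83-fold higher in Larynx than ACP. The postsynaptic adhesion protein gene Lrrtm4 was 2.84-fold higher in ACP than ACV, with means of 38.3 ± 46.4 and 13.5 ± 40.6 CPM.

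Nptx1, a pentraxin that gathers AMPA receptors, had means of 18.7 ± 52.8, 26 ± 67.9 and 52.3 ± 128.5 CPM in ACP, ACV and Larynx, 2.80-fold higher in Larynx than ACP. The scaffold gene Homer1, whose product ties group I receptors to the postsynaptic density, was 2.76-fold higher in ACP than ACV, at 18.9 ± 58.7 and 6.86 ± 17.8 CPM, and had 40.5 ± 88.9 CPM in Larynx. Shank3 was 2.53-fold higher in Larynx than ACV, at 9.98 ± 17.4 and 3.95 ± 11.7 CPM. The single related gene higher in ACV than ACP by both limits was the glutamate transporter gene Slc1a6, named here after its values were seen, at 63.2 ± 73.5 and 29.7 ± 92.5 CPM.

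Transcripts of other cells were present in the aspirated material of all 3 types. The summed level of 8 astrocyte markers ran from 11.1 to 8894 CPM in ACP, 21.7 to 30453 CPM in ACV and 0 to 14651 CPM in Larynx, with medians of 1242, 1026 and 1319 CPM, and all 8 had reads in each type. Medians of 8 oligodendrocyte lineage markers were 175.9, 172.99 and 229 CPM and those of 6 microglia markers 6.57, 17.6 and 31.2 CPM. The means were higher in ACV than in ACP or Larynx for the astrocyte sum, at 2528 against 1624 and 1691 CPM, and for the microglia sum, at 359 against 68.8 and 206 CPM. Most of the astrocyte sum was Apoe, with means of 1243, 2085 and 1384 CPM in ACP, ACV and Larynx. The other astrocyte markers were divided. Gfap, Aldh1l1, Slc1a3 and Gja1 had their highest mean in ACV, Aqp4 and Slc1a2 in ACP, and S100b in Larynx. Medians of 6 endothelial markers were 0 CPM in each type, with Flt1 at 0 in all ACP neurons, and 6 markers of other neurons had medians of 56.2, 49.9 and 241 CPM. Astrocytes also express Grm5 and Grm3, and other neurons most of the members, so these values stand beside every comparison, and their part in the results was not tested.

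The methods of the study state that neurons with over 1800 counts of Apoe were removed, yet 11 of 53 ACP and 28 of 98 ACV neurons in the table exceeded that number, and 0 of 52 Larynx neurons did. Among neurons with at most 1800 counts of Apoe (42, 70 and 52), 9 members were higher in ACP and 1, Cacng3, in ACV, 5 and 9 in ACP and Larynx, and 0 and 18 in ACV and Larynx. Over all genes the shares were then 12.99% and 8.18%, 10.8% and 13.5%, and 9.81% and 17.4%, in the same order. Among neurons with at most 900 counts (26, 44 and 38), the log2 ratio of ACP over ACV was 1.68 for Grm5, 2.66 for Grm7, 2.94 for Grm8 and 2.10 for Neto1, each as large as in all neurons or larger. These are members already called higher in ACP. In the same selection Cacng8, Cnih3, Gria3 and Grik1 turned to below a ratio of 1, at log2 ratios of -0.77 to -0.12. For ACP over Larynx, Gria4, Grid1, Grik3, Grin2a, Grin2b, Grin2d and Cacng7 turned, and for ACV over Larynx, Cacng3, Cnih3 and Cacng7.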

How the data were processed

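Single Amb neurons were sequenced by Smart-seq2 with Nextera XT libraries. The authors trimmed reads with Skewer, aligned them to mm10 with STAR 2.6.1d and deposited raw read counts per gene and neuron, 24029 genes in all, of which 4493 had no count. The counting program and its annotation are not given in the sources used here. The deposited table of normalized values was not used. Types were taken from the authors' deposited annotation. The labels place all neurons in 1 group and name no mouse, so no test was run.

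Counts were divided by each neuron's total outside Rn45s and multiplied by 1000000 (CPM). A type's level was its mean CPM over neurons. A gene was called higher at a ratio of at least 2, among genes read in at least 10% of the neurons of one type of the pair or the other. The code of the rule was run on simulated counts whose set changes were all above 2-fold. How often the rule calls or misses a 2-fold difference was not measured. Exon lengths, overlaps, coordinates and sequences came from GENCODE vM21 on GRCm38, and protein sequences were not used here. All members were named, with full values for those that also differed by 20 percentage points in share or were among the 3 highest per kilobase of their role, and at most 10 related genes by the same limits. Members and lists were chosen with earlier results of these data known.

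Alternatives were other totals, edgeR 4.0.16 (TMM) and DESeq2 1.42.0 size factors, summed counts, the mean of ln(CPM + 1), other filters and folds, thinning to 200000 counts, leaving out the highest neuron, and at most 900 or 1800 counts of Apoe. Depth ran from 118492 to 2396541 counts outside Rn45s and limits detection most in Larynx neurons. No pair of neurons had identical counts. Python 3.11.15, numpy 2.4.6, scipy 1.17.1, pandas 2.3.3, matplotlib 3.10.9 and R 4.3.3 were used.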

Additional observations from a re-analysis of the deposited data

How the results depend on the processing

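Of ACP against ACV, 9 members were higher in ACP and 0 in ACV; the 9 became 5 at a fold of 3 and 4 with the share limit, and the 0 became 1 by the mean of ln(CPM + 1), 2 without the detection filter, 5 at a fold of 1.5, 1 at no more than 900 counts of Apoe and 1 at no more than 1800, a limit added after the data were seen. Of ACP against Larynx, the 5 members higher in ACP became 3 by the mean of ln(CPM + 1), 2 at a fold of 3, 3 after thinning and 1 with the share limit, and the 9 higher in Larynx became 3 with Rn45s in the totals, 14 at a fold of 1.5, 3 at a fold of 3 and 2 with the share limit. Of ACV against Larynx, the 0 members higher in ACV became 3 with Rn45s in the totals, 1 by the mean of ln(CPM + 1), 3 at a fold of 1.5, 1 after thinning and 1 at no more than 900 counts of Apoe, and the 15 higher in Larynx became 7 at a fold of 3 and 5 with the share limit. Changes with the fold, the filter and the share limit follow from the rule itself, and the cause of the others was not tested. Cacng7 reversed at no more than 900 counts of Apoe, with log2 ratios of -0.77 for ACP over Larynx and -1.47 for ACV over Larynx. Over all genes, keeping Rn45s in the totals turned 1369 higher in ACP and 1653 in Larynx into 3399 and 695, and 1382 higher in ACV and 1858 in Larynx into 3281 and 955. The mean of ln(CPM + 1) left 664 and 327 genes for ACP against ACV (1318 and 1153 as reported), 1179 and 529 for ACP against Larynx, and 1093 and 894 for ACV against Larynx. Without the detection filter these were 3180 and 3783, 3429 and 4094, and 3897 and 4096; at a fold of 1.5, 2469 and 2134, 2590 and 2945, and 2685 and 3267; at a fold of 3, 645 and 576, 676 and 771, and 693 and 877. Requiring a read in 25% of neurons left 789 and 537, 817 and 1016, and 764 and 1282. After thinning, the counts over all genes were 1158 and 983, 1197 and 1568, and 1213 and 1819. At no more than 900 counts of Apoe they were 1965 and 1621, 1800 and 2305, and 1577 and 2488. At no more than 1800 they were 1723 and 1085, 1430 and 1782, and 1298 and 2305. Of 288 log2 ratios of single members per comparison under 9 alternatives, ACP against ACV kept direction and side in 267, lost a call in 2, gained one in 8 and turned in 11, ACP against Larynx in 217, 23, 18 and 30, and ACV against Larynx in 257, 6, 17 and 8. Subunit shares of Gria2, Grin2b and Grik1 moved by less than 1 SD under the alternatives tried for them. That SD is the spread over single neurons, so a shift within it can still be large. Without the length correction, the share of Gria2 moved by more than the types differed, with the Larynx type still lowest. No paired analysis was possible because the labels place all neurons in 1 group, their replicate numbers only name neurons, and no result comes from a test.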
